A study of Mus musculus with 16 samples.

Results

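Transcripts of 7 small leucine-rich proteoglycans, biglycan (Bgn), decorin (Dcn), lumican (Lum), fibromodulin (Fmod), osteoglycin (Ogn), asporin (Aspn) and proline and arginine rich end leucine rich repeat protein (Prelp), were measured in mouse mammary adipose tissue. The genes were taken by name as members of this family and not by their values. They were 7 of the 23179 genes with values, and 7 of 7 passed the filter on low values that left 21218 genes for testing.

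Small leucine-rich proteoglycans are secreted proteins of the extracellular matrix, built around a chain of leucine-rich repeats that lets most of them bind collagen and set the width and spacing of its fibrils. Decorin and biglycan carry chondroitin or dermatan sulfate chains, lumican, fibromodulin and osteoglycin can carry keratan sulfate, and asporin and Prelp carry no typical chain. Decorin and biglycan also bind TGF-beta, and soluble biglycan is a known ligand of the receptors Tlr2 and Tlr4. In adipose tissue these genes are mainly expressed by fibroblasts and progenitors of the stroma, and decorin and lumican are common markers of such cells.

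Wild-type female C57BL/6NCrl mice (C57BL/6N in the sample labels), 8 weeks old on arrival, formed 4 groups with 4 libraries each. Lean controls were fed the low-fat diet D12450J (CON-LFD), while the remaining mice became obese on the high-fat diet D12492, with 60% fat (diet-induced obesity, DIO). The obese mice then stayed on that diet (DIO-HFD), changed to low-fat food (DIO-LFD), or changed to it after vertical sleeve gastrectomy, an operation that removes part of the stomach (DIO-VSG). CON-LFD, DIO-HFD and DIO-LFD mice had a sham operation, and mice of all 4 groups, the lean controls included, bore a tumor grown for 4 weeks from E0771 mouse mammary carcinoma cells, injected into the 4th mammary fat pad 22 weeks after randomization. The libraries came from the 9th fat pad on the other side. The groups differ in diet, surgery and body weight together, and removal of the lymph node from the pad was not described. The tissue was sequenced in bulk, so that fewer cells of a type and less RNA per cell cannot be told apart.

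Libraries held 46907377 to 57610899 reads, and the members had between 276 and 108701 reads in a library, so that counting error was small beside the spread between mice. Levels are given as normalized counts, which are reads divided by the size factor of the library. The 6 adipocyte markers together reached at least 345948 normalized counts in each library, and each of the 7 stromal progenitor markers was detected. A marker score averages, over the genes of a list, how far each stands in a library from its own 16-library mean on the log2 scale. The B cell score was below -2 in CON-LFD replicates 2 and 4 (-6.01 and -3.99) and DIO-HFD replicates 2 and 3 (-2.47 and -4.43), and between 1.85 and 2.07 in the DIO-VSG libraries. Scores also stood high for skeletal muscle in DIO-LFD replicate 4 (6.03) and for keratinocytes in DIO-HFD replicate 4 (6.29).

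The members lie in 4 places of the genome (GRCm38, GENCODE M21), each as a protein-coding gene. Dcn (chr10:97479609-97518143, plus strand) and Lum (chr10:97565128-97572703, plus strand) are separated by 47.0 kb. Aspn (chr13:49544443-49567565, plus strand) and Ogn (chr13:49608046-49624501, plus strand) are separated by 40.5 kb, with the family gene Omd between them. Prelp (chr1:133910304-133921414, minus strand) and Fmod (chr1:134037254-134048277, plus strand) are separated by 115.8 kb, and Bgn (chrX:73483602-73495933, plus strand) stands alone. Aspn and Ogn lie within the span of Cenpp on the opposite strand, and Prelp overlaps the antisense gene Gm15851. The libraries were stranded, but whether counting used the strand was not stated. Both overlapping genes had low levels, 26.2 to 117 normalized counts for Cenpp and 20.5 to 125 for Gm15851.

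Promoters of the members that stood lowest in DIO-VSG (Bgn, Prelp and Aspn, below), and of Ogn beside Aspn, show how unlike the starts of these genes are. The 250 bases before the gene start are given 5′ to 3′ on the strand of the gene, from RefSeq (GRCm38.p6), with matches to any of 4 searched motifs in capitals. The motifs, sought on both strands, were the TATA box letters TATAAA, the GC box letters GGGCGG known from Sp factors, the letters TGANTCA (N is any base) known from AP-1 factors and the letters GGAATG known from TEAD factors. Matches of TATAAA on both strands overlap in Ogn, and matches of GGGCGG overlap in Bgn.
Bgn, chrX:73483351-73483600, plus strand: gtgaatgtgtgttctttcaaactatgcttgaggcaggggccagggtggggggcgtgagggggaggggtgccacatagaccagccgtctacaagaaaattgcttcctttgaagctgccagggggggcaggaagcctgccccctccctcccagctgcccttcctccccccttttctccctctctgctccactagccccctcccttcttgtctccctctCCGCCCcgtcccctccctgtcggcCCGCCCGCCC
Prelp, chr1:133921402-133921651, minus strand: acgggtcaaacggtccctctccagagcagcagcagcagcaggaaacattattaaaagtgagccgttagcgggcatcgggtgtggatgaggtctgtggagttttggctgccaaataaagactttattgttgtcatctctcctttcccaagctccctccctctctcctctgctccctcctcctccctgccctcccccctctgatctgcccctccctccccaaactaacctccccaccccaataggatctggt
Aspn, chr13:49544193-49544442, plus strand: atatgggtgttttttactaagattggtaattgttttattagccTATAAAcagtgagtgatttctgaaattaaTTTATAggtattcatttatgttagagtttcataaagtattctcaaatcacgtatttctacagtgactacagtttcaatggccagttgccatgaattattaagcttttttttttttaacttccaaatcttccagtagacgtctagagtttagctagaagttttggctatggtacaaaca
Ogn, chr13:49607765-49608014, plus strand: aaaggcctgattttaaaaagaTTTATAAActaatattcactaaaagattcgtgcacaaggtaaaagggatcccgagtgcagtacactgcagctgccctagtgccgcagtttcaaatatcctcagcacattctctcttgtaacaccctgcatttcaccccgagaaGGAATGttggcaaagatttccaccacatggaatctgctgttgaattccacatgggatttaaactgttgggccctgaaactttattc
The Bgn sequence was 64.4% G and C, above 81.6% of the 32851 promoters of the same length, and held 3 matches to GGGCGG, read on the other strand as CCGCCC. The Aspn sequence was 30.0% G and C, above only 1.5% of promoters, and held 2 matches to TATAAA, which began 207 and 178 bases before the start. Prelp (55.6% G and C) held none of the 4 motifs, and Fmod, not printed, held none either (51.2% G and C). Ogn (42.0% G and C) held TATAAA and 1 match to GGAATG. Among the 32851 promoters, TATAAA was in 12.4%, GGGCGG in 32.7%, TGANTCA in 6.75% and GGAATG in 12.6%. Bgn and Prelp, whose levels were correlated across libraries (below), could share none of these 4 motifs, as Prelp held none. A match is a description of the sequence and not of a bound site.

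Levels of different genes were compared per kb of the longest coding transcript. On that scale the order of the means over 16 libraries was Dcn (19880 normalized counts per kb), Prelp (16918), Bgn (8577), Lum (2137), Ogn (1691), Aspn (574) and Fmod (315). Prelp was above Bgn, Bgn above Lum, and Ogn above Aspn in 16 of 16 libraries each. Neighbours with less stable order were Dcn and Prelp (Dcn higher in 11 of 16 libraries), Lum and Ogn (Lum higher in 12 of 16) and Aspn and Fmod (Aspn higher in 12 of 16, but in 1 of 4 DIO-VSG libraries). Together the members made up 0.121% of all normalized counts in DIO-VSG replicate 3 and 0.405% in DIO-HFD replicate 2, the extremes of the 16 libraries. The group means of that share were 0.257 ± 0.0801% in CON-LFD, 0.335 ± 0.071% in DIO-HFD, 0.222 ± 0.0465% in DIO-LFD and 0.17 ± 0.0356% in DIO-VSG (SD, n = 4). The DIO-VSG shares (0.121 to 0.201%) lay below the DIO-HFD shares (0.236 to 0.405%) without overlap, which is a description, as the share was not tested.

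**Figure D1:**
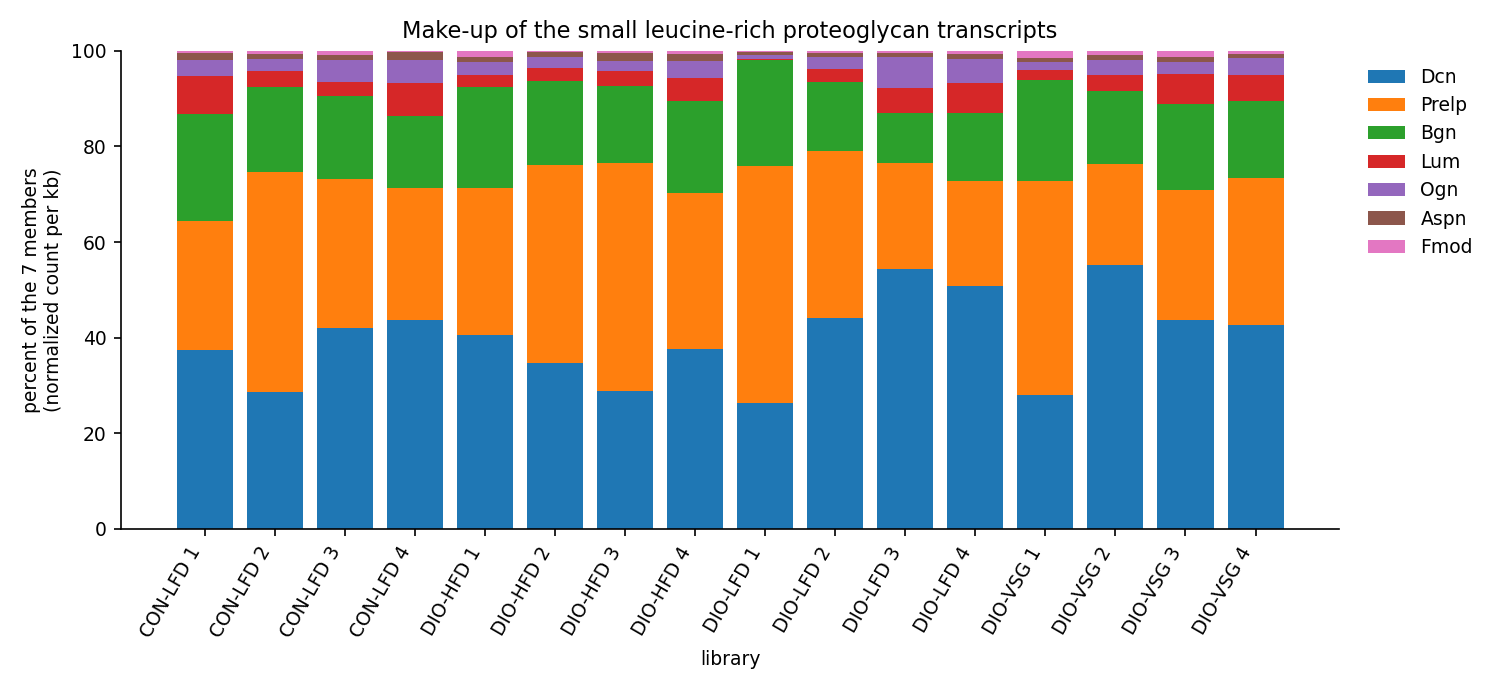
Stacked bars give, for each of the 16 libraries (group and replicate number on the x axis), the percent of the summed normalized counts per kb of the 7 members that each member took. Dcn, Prelp and Bgn filled most of each bar, and the share of Dcn ran from 26.4% in DIO-LFD replicate 1 to 55.1% in DIO-VSG replicate 2.

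Within the mix, the libraries of a group often differed as much as the group means, though not in each group or for each ratio. The ratio of Bgn to Dcn per kb was closest among the DIO-HFD libraries (0.505 to 0.554), and spread from 0.193 to 0.839 in DIO-LFD and from 0.274 to 0.752 in DIO-VSG. In DIO-LFD replicate 1 Lum was only 0.00971 of Dcn, against 0.0637 to 0.127 in the other DIO-LFD libraries. The highest ratio of Lum to Fmod, 35.6, was that of CON-LFD replicate 4.

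Biglycan and decorin are the chondroitin and dermatan sulfate carriers. Bgn stood at 26251, 18881, 18169 and 31937 normalized counts in CON-LFD replicates 1 to 4, at 21748, 33055, 26675 and 29521 in DIO-HFD, at 25729, 12169, 14477 and 15690 in DIO-LFD and at 15041, 14758, 11235 and 16611 in DIO-VSG. Each DIO-VSG library was below each DIO-HFD and each CON-LFD library, while 3 of 4 DIO-LFD libraries were as low as DIO-VSG and replicate 1 was not. The group means were 27750 ± 4777 in DIO-HFD, 23810 ± 6535 in CON-LFD, 17016 ± 5989 in DIO-LFD and 14411 ± 2269 in DIO-VSG (SD, n = 4), and neighbours in this order overlapped. Dcn, a binder of collagen type I, read 32064, 22046, 31766 and 67447 in CON-LFD, 30569, 47536, 34982 and 41983 in DIO-HFD, 22293, 27290, 54589 and 41196 in DIO-LFD and 14533, 39174, 19788 and 31934 in DIO-VSG. All 4 groups overlapped for Dcn, and its highest value, in CON-LFD replicate 4, was 4.6 times its lowest, in DIO-VSG replicate 1.

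Asporin, which binds collagen and TGF-beta, stood at 1653, 1178, 1076 and 3241 normalized counts in CON-LFD, at 961, 1841, 2667 and 2190 in DIO-HFD, at 545, 709, 1210 and 1071 in DIO-LFD and at 582, 869, 684 and 927 in DIO-VSG. The DIO-VSG values lay below those of CON-LFD and DIO-HFD without overlap, although DIO-HFD replicate 1 (961) was close to the highest DIO-VSG library (927). Ogn read 4244, 2919, 5136 and 11047 in CON-LFD, 3027, 4784, 3776 and 5754 in DIO-HFD, 1161, 2173, 9307 and 5947 in DIO-LFD and 1380, 3385, 1565 and 3817 in DIO-VSG. Ogn overlapped between each pair of groups, with an 8.0-fold range inside DIO-LFD.

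Lumican, fibromodulin and Prelp belong to the class known for its keratan sulfate carriers. In normalized counts, Lum read 9537, 3520, 2951 and 15036 in CON-LFD, 2647, 5314, 5352 and 7407 in DIO-HFD, 301, 2419, 7310 and 7261 in DIO-LFD and 1489, 3313, 4042 and 5790 in DIO-VSG. Lum had the widest range of the 7 members, 49.9-fold over the 16 libraries, and its lowest value was in DIO-LFD replicate 1. Fmod, the least abundant member, read 757, 792, 1155 and 539 in CON-LFD, 1915, 706, 826 and 1447 in DIO-HFD, 509, 586, 974 and 933 in DIO-LFD and 1299, 1333, 1084 and 863 in DIO-VSG. Prelp, which binds collagen and heparan sulfate at basement membranes, read 47723, 72928, 48046 and 88231 in CON-LFD, 47659, 117247, 118638 and 74348 in DIO-HFD, 85949, 44353, 45506 and 36609 in DIO-LFD and 47387, 31150, 25434 and 47348 in DIO-VSG. Groups overlapped throughout for Fmod, while each DIO-VSG library was below each DIO-HFD and CON-LFD library for Prelp, although the highest DIO-VSG library (47387) and the lowest DIO-HFD library (47659) nearly met.

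**Figure D2:**
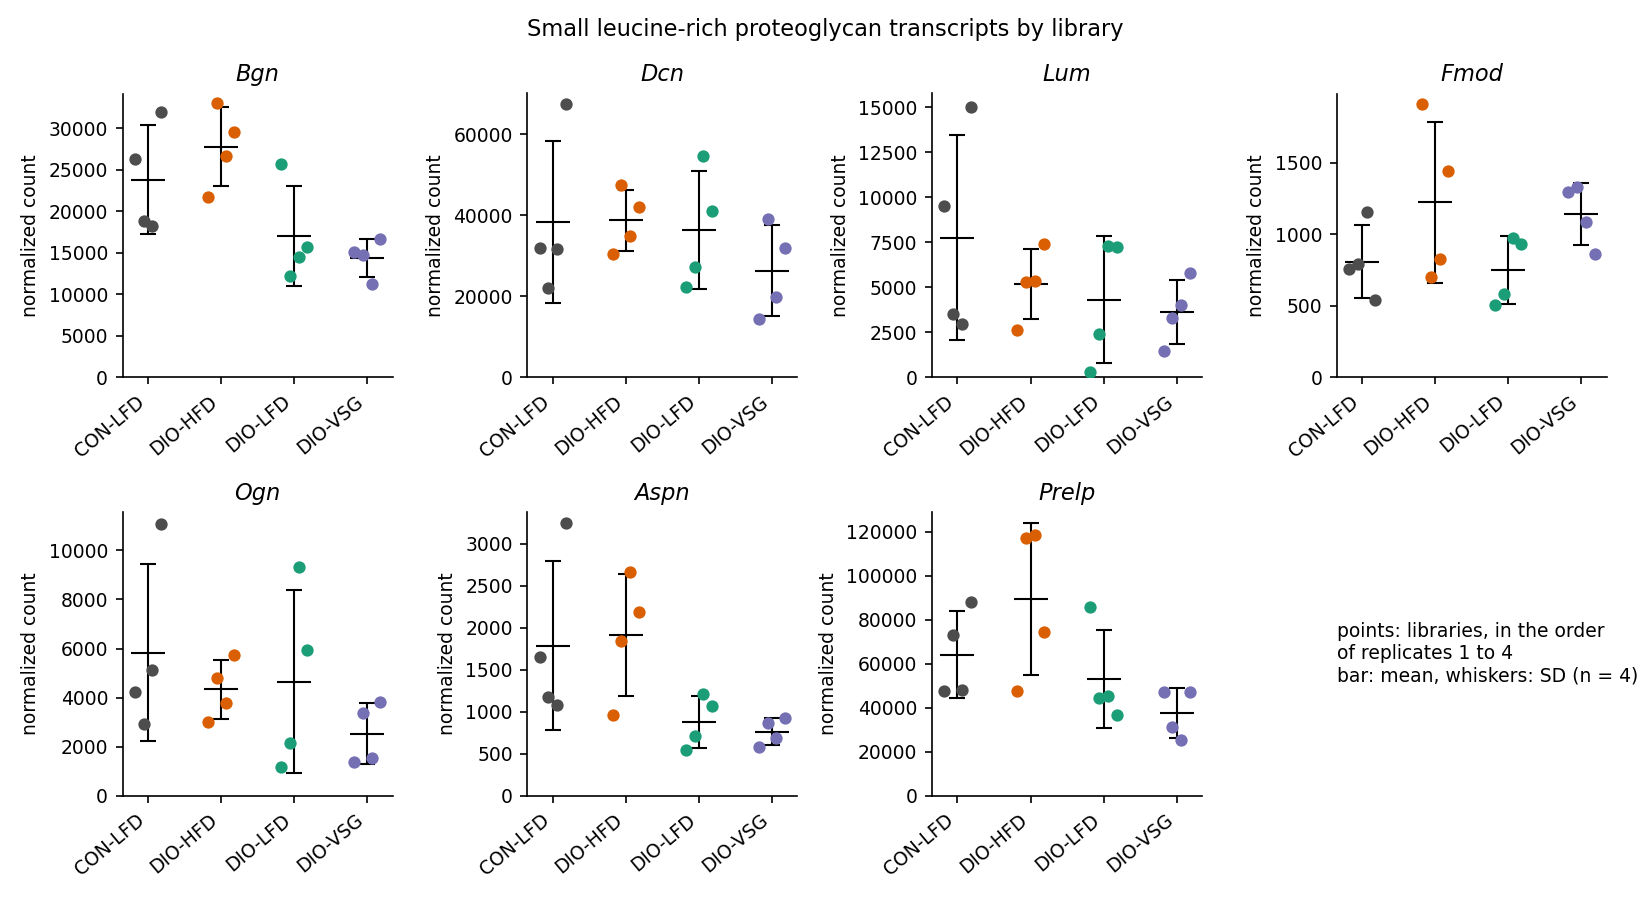
Normalized counts (y axis, linear, from 0) of the 7 members in the 4 groups (x axis), with 1 point per library in the order of replicates 1 to 4, a bar at the mean and whiskers of 1 SD (n = 4). The DIO-VSG points for Bgn (11235 to 16611), Aspn (582 to 927) and Prelp (25434 to 47387) lie below the DIO-HFD and CON-LFD points of the same gene.

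The spread between libraries of 1 group was large for most members. The SD within groups on the log2 scale was 1.33 for Lum, 0.90 for Ogn, 0.57 for Dcn and Aspn, 0.52 for Prelp, 0.49 for Fmod and 0.35 for Bgn, against a median of 0.22 over the 11052 genes with a mean of at least 500 normalized counts. Bgn was the steadiest member, although 71.1% of those genes had a smaller SD, and Lum was the least steady, with a smaller SD in 97.8% of them.

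Whether weight loss after surgery left these transcripts at other levels than continued obesity was addressed by comparing DIO-VSG with DIO-HFD. Fold changes are differences of log2(normalized count + 1) from limma, fitted over all genes, with P values adjusted by the Benjamini-Hochberg procedure over the 21218 genes and 0.05 as threshold. No member passed, nor did any gene (0%), and the smallest adjusted P of any gene in limma was 0.243. The limma voom method on the recovered reads also called 0 genes. Bgn was at a log2 fold change of -0.94 ± 0.24 (SE, 95% confidence interval -1.45 to -0.44; limma, unadjusted P = 0.00126, adjusted P = 0.243), which is 0.52 times the DIO-HFD level. By unadjusted P Bgn ranked 106 of the 21218 genes. Its adjusted P equalled the smallest in the comparison because the adjustment can give neighbouring ranks the same value. Aspn was at -1.25 ± 0.38 (limma, unadjusted P = 0.00486, adjusted P = 0.271), or 0.42 times, and Prelp at -1.20 ± 0.35 (limma, unadjusted P = 0.00375, adjusted P = 0.259), or 0.436 times.

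These 3 of 7 members had DIO-VSG values below DIO-HFD without overlap, as did 4.22% of all genes tested, and an exact two-sided permutation test gave each P = 0.0286, the smallest that 4 against 4 libraries allow. The same 3 were the members with an unadjusted P below 0.05 in limma, which 8.12% of genes reached in this direction. Dcn (-0.64, 95% confidence interval -1.45 to 0.16), Ogn (-0.87, -2.13 to 0.39) and Lum (-0.57, -2.42 to 1.28) also had estimates below 0 with intervals that include 0. Fmod was at 0.00 (-0.69 to 0.70). Leaving out 1 library gave -0.22 (without DIO-HFD replicate 2) to 0.26 (without DIO-HFD replicate 1). Without the 4 libraries of low B cell score, a choice made after seeing the data, Fmod was at -0.56 (limma, unadjusted P = 0.0902, adjusted P = 0.759). In DIO-HFD these libraries held the 2 lowest Fmod values, so their removal lowers the estimate. In that fit Dcn was at -0.55 and Lum at -0.43. The median over the 7 members was -0.87, and over all genes 0.02. With library quality weights, under which 3739 genes passed, Bgn (adjusted P = 0.0016), Aspn (0.00208), Prelp (0.00732), Ogn (0.0383) and Dcn (0.0403) passed the threshold in limma.

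Switching diet alone was addressed by DIO-LFD against DIO-HFD. No member and no other gene (0%) passed the adjusted threshold in limma, where the smallest adjusted P was 0.296. With library quality weights, under which 1811 genes passed, Bgn (adjusted P = 0.0049), Aspn (0.0139) and Fmod (0.0302) passed in limma. The fitted values were below 0 for 7 of 7 members, against 48.4% of all genes, with a median of -0.74 beside 0.01 for all genes. For Ogn the fitted value (-0.29) and the group means differed in direction, since DIO-LFD averaged 4647 ± 3727 and DIO-HFD 4335 ± 1189 normalized counts (SD, n = 4). Aspn was at a log2 fold change of -1.09 ± 0.38 (SE; limma, unadjusted P = 0.0114, adjusted P = 0.463) and Bgn at -0.75 ± 0.24 (limma, unadjusted P = 0.00657, adjusted P = 0.456), and these were the 2 members with an unadjusted P below 0.05, which 3.16% of genes reached in this direction. Prelp was at -0.74 (95% confidence interval -1.48 to 0.00) and Fmod at -0.64 (-1.34 to 0.05). With quantile normalization both were at an unadjusted P below 0.05 (limma, 0.00543 and 0.0479, adjusted P = 0.433 and 0.594). Over 28 alternative settings the unadjusted P in limma ran from 0.00543 to 0.508 for Prelp and 0.00154 to 0.234 for Fmod. For Aspn it ran from 0.000274 to 0.0696 and for Bgn from 2.07e-05 to 0.0493. No member separated the groups without overlap, which 1.5% of genes did in this direction. Without DIO-LFD replicate 1, the library with 301 normalized counts of Lum, the Lum value moved from -0.96 to 0.05, Ogn from -0.29 to 0.23 and Dcn from -0.16 to 0.05. This comparison and that of DIO-VSG share the DIO-HFD libraries.

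Obesity itself was addressed by DIO-HFD against CON-LFD. In limma 8 genes passed the adjusted threshold (0.0377%), of which 0 were members, and 0 members had an unadjusted P below 0.05, against 12.9% of all genes in either direction. The largest estimates were those of Fmod (0.53, 95% confidence interval -0.17 to 1.22) and Prelp (0.44, -0.31 to 1.18). Bgn was at 0.24 (-0.26 to 0.75), Dcn at 0.12 (-0.68 to 0.93) and Aspn at 0.15 (-0.65 to 0.96), and without CON-LFD replicate 4 these values were 0.40, 0.44 and 0.49. For Lum (-0.35, -2.21 to 1.5) and Ogn (-0.29, -1.55 to 0.97) the intervals were wide. With library quality weights Fmod passed (limma, adjusted P = 0.018), in a fit where 4196 genes did. On leaving out 1 library Fmod ran from 0.27 (without DIO-HFD replicate 1) to 0.75 (without DIO-HFD replicate 2, at an unadjusted P below 0.05 in limma), and Prelp from 0.27 (without DIO-HFD replicate 2) to 0.71 (without DIO-HFD replicate 1). Fmod was at 0.83 without the 4 libraries of low B cell score (limma, unadjusted P = 0.0365, adjusted P = 0.602). Prelp was at 0.62 with that score as a covariate (limma, unadjusted P = 0.0347, adjusted P = 0.278). With quantile normalization it was at 0.58 (limma, unadjusted P = 0.0487, adjusted P = 0.399). Ogn was at -0.58 with the stromal progenitor score as a covariate (limma, unadjusted P = 0.0303, adjusted P = 0.327). These settings are named because their unadjusted P was below 0.05, and the share of all genes below it in these fits is not given. Leaving out the 4 libraries and using the stromal score were chosen after seeing the data.

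**Figure D3:**
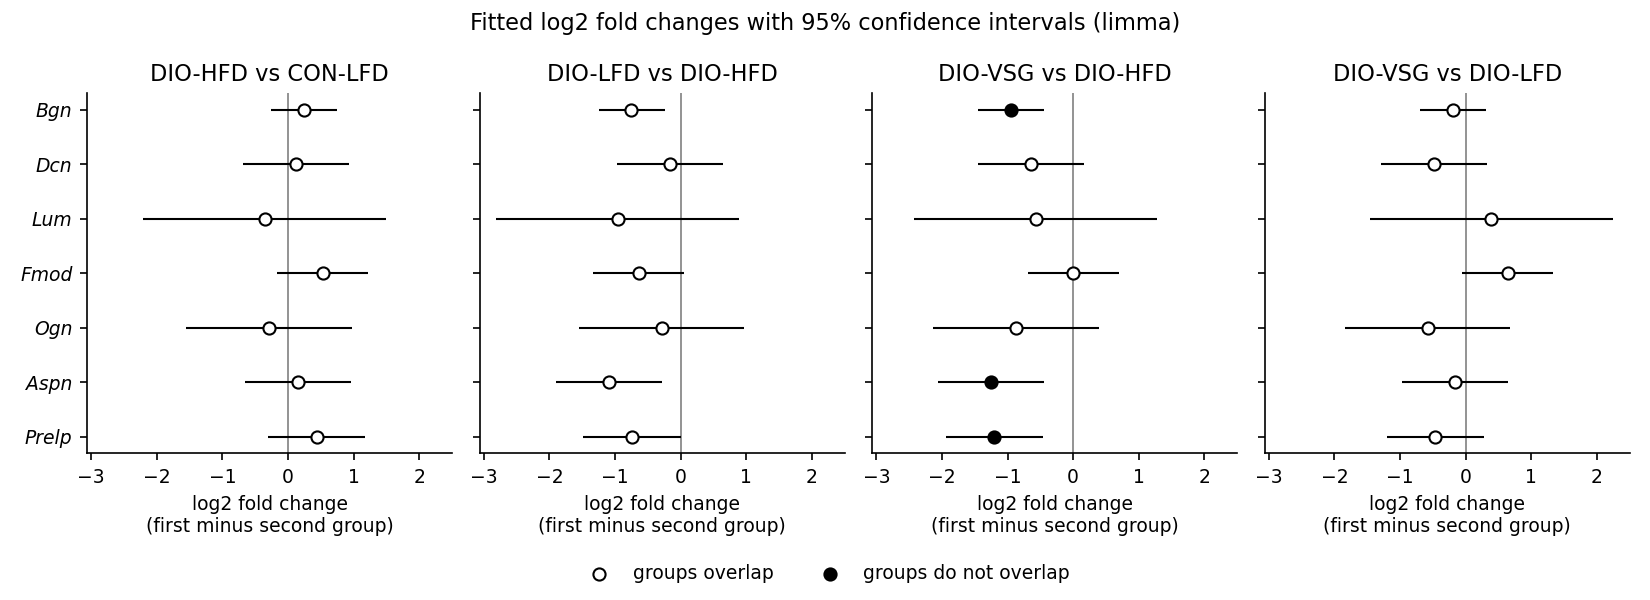
Fitted log2 fold changes (x axis, first minus second group) of the 7 members (y axis) in 4 comparisons, with 95% confidence intervals from limma as lines; filled points mark members whose 4 values per group do not overlap. The filled points are those of Bgn (-0.94), Aspn (-1.25) and Prelp (-1.20) in DIO-VSG against DIO-HFD.

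Surgery with the low-fat diet was set directly against the diet alone by comparing DIO-VSG with DIO-LFD. No member passed in limma (0% of genes; smallest adjusted P of any gene 0.427) and 0 members had an unadjusted P below 0.05, against 9.71% of genes in either direction. Bgn was at a log2 fold change of -0.19 (95% confidence interval -0.70 to 0.31), Aspn at -0.16 (-0.97 to 0.64) and Prelp at -0.46 (-1.20 to 0.28), so although these genes separated from DIO-HFD in DIO-VSG and not in DIO-LFD, the direct test found no difference between the interventions at the threshold, and the intervals include differences in both directions. Fmod had the smallest unadjusted P of the members, 0.0668 in limma (0.64, -0.05 to 1.34; adjusted P = 0.51). In the fit of the 8 libraries compared its unadjusted P was 0.0273 (limma, adjusted P = 0.142). Without the 4 libraries of low B cell score it was 0.0244 (limma, adjusted P = 0.175). With library quality weights Dcn was at -0.74 (limma, unadjusted P = 0.0328, adjusted P = 0.157) and Ogn at -1.11 (limma, unadjusted P = 0.0416, adjusted P = 0.177). These settings were named after their values were seen.

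Against the lean controls, DIO-VSG libraries were lower without overlap for Bgn, Aspn and Prelp, as they were for 4.43% of genes. The log2 fold changes were -0.70 ± 0.24 for Bgn, -1.10 ± 0.38 for Aspn (both limma, adjusted P = 0.268) and -0.76 ± 0.35 for Prelp (limma, adjusted P = 0.275), and 0 genes passed (0%). Bgn, Aspn and Prelp were also the members at an unadjusted P below 0.05 in limma, against 7.55% of genes in this direction. Over 28 alternative settings the unadjusted P in limma ran from 0.000524 to 0.0653 for Bgn and 0.00113 to 0.0954 for Aspn. For Prelp it ran from 0.0264 to 0.551, and for Ogn from 0.00421 to 0.208, so which members were counted depended on the setting. With library quality weights Bgn (adjusted P = 0.0161) and Aspn (0.0191) passed in limma, in a fit where 4226 genes did. In DIO-LFD against CON-LFD 7 of 7 members had estimates below 0, as 46.9% of genes did, from -1.32 for Lum to -0.04 for Dcn. The count was 4 of 7 with library quality weights and 5 of 7 without the 4 libraries of low B cell score. Aspn (-0.94, limma, unadjusted P = 0.0253, adjusted P = 0.725) and Bgn (-0.50, limma, adjusted P = 0.791) were the 2 members with an unadjusted P below 0.05, Bgn by a margin lost on rounding, against 3.03% of genes in this direction, and 1 gene, no member, passed the adjusted threshold (0.00471%). In DIO-LFD against CON-LFD the unadjusted P in limma ran, over the alternatives, from 0.00725 to 0.117 for Aspn and 0.00234 to 0.171 for Bgn. These comparisons share libraries with those above and are not independent of them.

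Prelp was higher, and Fmod in DIO-HFD lower, in libraries with a low B cell marker score. In DIO-HFD the 2 libraries with a score below -2 had 117247 and 118638 normalized counts of Prelp and the other 2 had 47659 and 74348. In CON-LFD the same split gave 72928 and 88231 against 47723 and 48046. For Fmod the DIO-HFD libraries of low score had 706 and 826 normalized counts and the other 2 had 1447 and 1915, while in CON-LFD the split (539 and 792 against 757 and 1155) overlapped. The 6 B cell markers summed to 217 to 56006 in CON-LFD (normalized counts), 904 to 74579 in DIO-HFD, 13665 to 30492 in DIO-LFD and 50980 to 59457 in DIO-VSG, and none of the 6 was at 3 reads or fewer throughout a group. Without the 4 libraries of low score, a choice made after seeing the data, the DIO-VSG against DIO-HFD value was -0.71 for Prelp (limma, unadjusted P = 0.0765), -0.83 for Bgn (0.015) and -0.95 for Aspn (0.0342). With the score as a covariate the values were -0.81, -0.85 and -1.02. Fmod, at 0.00 over all libraries, was then -0.35, and -0.56 without the 4 libraries, which also took its DIO-LFD against DIO-HFD value from -0.64 to -1.20 (limma, unadjusted P = 0.00226, adjusted P = 0.154). In that comparison Prelp went from -0.74 to -0.25 (limma, unadjusted P = 0.508) and Aspn from -1.09 to -0.79 (limma, unadjusted P = 0.0696) without them, while Bgn was at -0.63 (limma, unadjusted P = 0.0493). Against CON-LFD, the DIO-VSG value of Prelp went from -0.76 to -0.19 with the score as covariate, and 0 in place of 3 members then had an unadjusted P below 0.05. The share of all genes below it in that fit is not given. The DIO-VSG scores spanned only 1.85 to 2.07, so in the covariate fits the slope rested mainly on the other groups. The part of B cell rich tissue in these results was not tested beyond this.

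**Figure D4:**
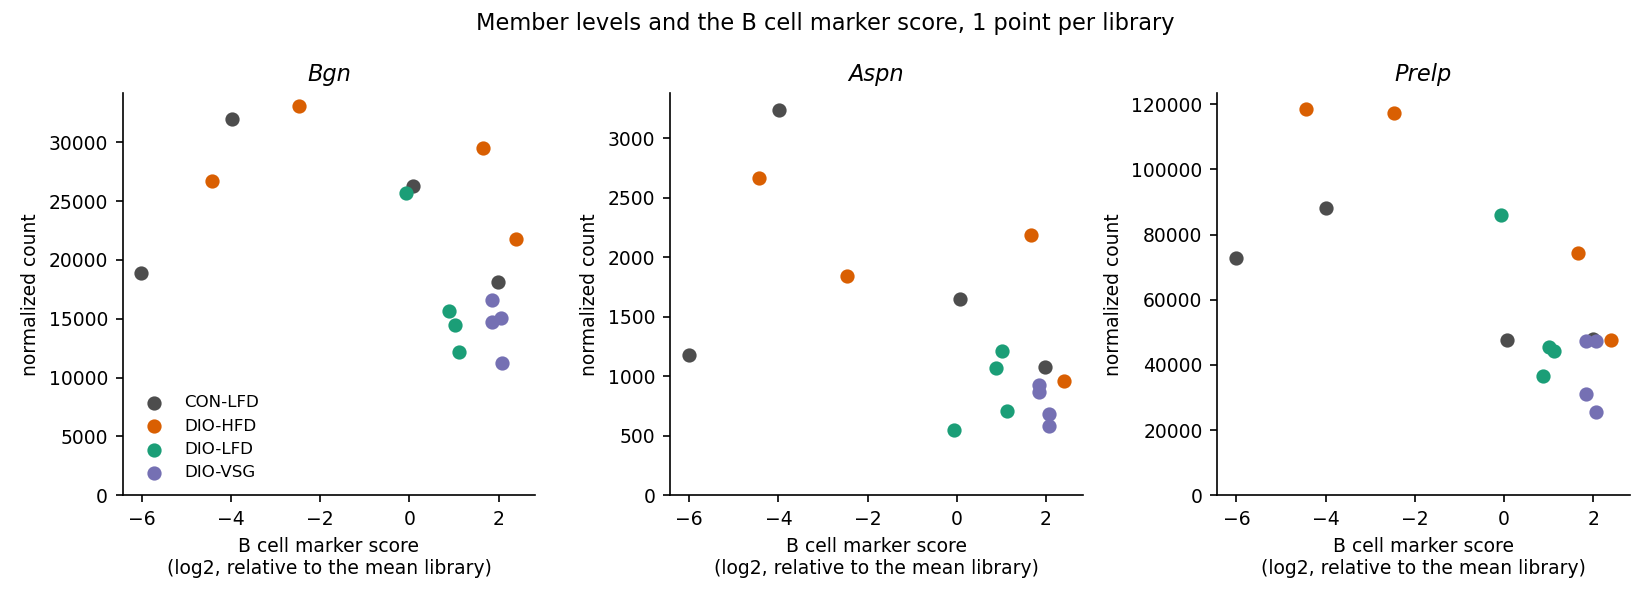
Normalized counts (y axis, linear, from 0) of Bgn, Aspn and Prelp against the B cell marker score (x axis, log2 relative to the mean library), with 1 point per library coloured by group. The highest Prelp values, 117247 and 118638, are in DIO-HFD libraries with scores of -2.47 and -4.43, and the 4 DIO-VSG libraries sit together between 1.85 and 2.07.

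The stromal progenitor score was lowest in DIO-LFD replicate 1 (-1.07), CON-LFD replicate 2 (-0.97) and DIO-VSG replicate 1 (-0.73). The 7 markers summed to 36512 to 52337 normalized counts in DIO-HFD, 23619 to 73022 in CON-LFD, 24544 to 61012 in DIO-LFD and 26397 to 36178 in DIO-VSG, so that the DIO-VSG sums lay below those of DIO-HFD. Of the 7 markers, 4 had estimates below 0 and 3 above 0 in that comparison, with a median of -0.85 beside -0.87 for the members. At an unadjusted P below 0.05 in limma 3 were lower (8.12% of all genes), and 2 were lower without overlap (4.22%), while the scores overlapped (-0.73 to 0.10 in DIO-VSG, -0.18 to 0.59 in DIO-HFD). With this score as a covariate, also chosen after seeing the data, DIO-VSG against DIO-HFD gave -0.93 for Bgn (limma, unadjusted P = 0.00279), -0.96 for Aspn (0.00692) and -1.32 for Prelp (0.00259). Lum went from -0.57 to 0.25, Ogn from -0.87 to -0.25 and Dcn from -0.64 to -0.26 under it, and Fmod from 0.00 to 0.07. Whether the number of stromal cells set the levels of these genes was not tested. Endothelium markers were below 0 in 5 of 5 in the same comparison, 3 of them at an unadjusted P below 0.05 in limma, and their sums were 33647 to 34955 normalized counts for DIO-VSG against 39134 to 61622 for DIO-HFD, without overlap. Macrophage markers were below 0 in 6 of 6 (median -0.85), 1 of them at an unadjusted P below 0.05, with sums of 8458 to 23028 against 21457 to 24153. The part of either cell type in the members' values was not tested.

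Across the 16 libraries the members fell into sets that moved together. The 21 pairs of members were each given Pearson's r and Spearman's rho on the log2 scale, with permutation P values from 100000 resamples adjusted over the pairs, and 9 pairs passed by either measure. The share of pairs of any genes that would pass is not given. Library pool, depth and cell makeup are shared by all genes of a library, and their part in these correlations was not tested. Dcn and Ogn were closest (r = 0.91, rho = 0.89, permutation P = 1e-05, the smallest that the resamples allow; adjusted P = 0.00021), followed by Bgn and Prelp (r = 0.84, rho = 0.90, permutation P = 6e-05, adjusted P = 0.00042) and Lum and Ogn (r = 0.82, rho = 0.81, permutation P = 4e-05, adjusted P = 0.00042). Leaving out the 2 libraries farthest from the median of the first gene gave r of 0.87, 0.77 and 0.73 for these pairs. Dcn, Ogn, Lum and Aspn formed 1 set with r between 0.68 and 0.91 in all 6 pairs, and these held for deviations from the group means (0.73 to 0.92). Each of those 6 pairs passed, with a permutation P of at most 0.0041 and an adjusted P of at most 0.0108. Without the 2 farthest libraries r was 0.56 or more in these pairs.

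Bgn and Prelp formed the second set, with r = 0.69 for deviations from group means. Aspn joined both sets over the 16 libraries, at r = 0.71 with Bgn (rho = 0.69, permutation P = 0.00212, adjusted P = 0.00636) and r = 0.60 with Prelp (rho = 0.61, permutation P = 0.0139, adjusted P = 0.0324). Within groups these links were weaker, at 0.34 and 0.26, and without the 2 farthest libraries they were 0.61 and 0.41. Prelp showed no such relation to Dcn (r = 0.28), Ogn (0.20) or Lum (0.00). Fmod had no r above 0.06 with another member, and its deviations from group means ran opposite to those of Prelp (r = -0.77) and Bgn (r = -0.57), for which no test was run. Neighbours on a chromosome were correlated in the case of Dcn and Lum (0.68) and Aspn and Ogn (0.77), while Prelp and Fmod were not (-0.44, permutation P = 0.0821, adjusted P = 0.172).

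**Figure D5:**
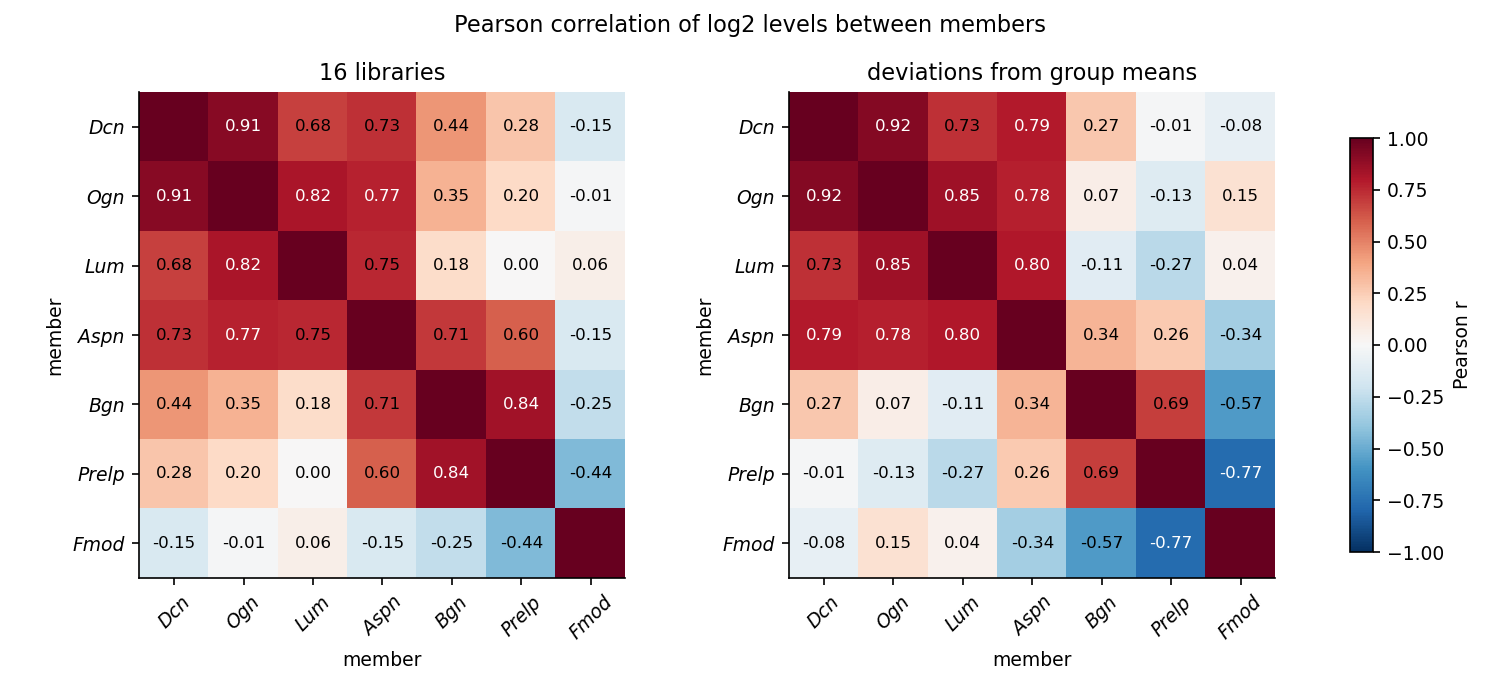
Pearson's r between the log2 levels of each pair of members (both axes), over the 16 libraries on the left and for deviations from group means on the right, with r on a colour scale from -1 to 1. Dcn, Ogn, Lum and Aspn form a block of r from 0.68 to 0.91 on the left, Bgn and Prelp a pair at 0.84, and Fmod is at or near 0 or below with each of the others.

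The genes with the most similar pattern over the 16 libraries, among all genes tested, differed between the sets. For Lum they were the fibrillar collagen genes Col3a1 (r = 0.971) and Col1a1 (0.941), and Prrx2 (0.929), a mesenchymal transcription factor. For Dcn they were Rnase4 and Timp2, an inhibitor of matrix metalloproteinases (both 0.971), and Lrrn4cl (0.968). Ogn was closest to Sdk1 (0.956), Ano3 (0.949) and Fam171b (0.943), and Aspn to Smoc2 and Mxra7 (both 0.929) and Efemp1 (0.919), where Smoc2 and Efemp1 encode matrix proteins. Prelp was closest to Lims2 (0.969), a partner of integrin-linked kinase, the spectrin gene Sptbn1 (0.963) and the myosin gene Myo1c (0.961). Bgn was closest to Ankrd29 (0.911), the lysosomal enzyme gene Ids (0.901), which removes sulfate from dermatan and heparan sulfate, and Rbms3 (0.88). Fmod was closest to Tspyl4 (0.93), Nckap5l (0.922) and Dgkz (0.92). The 16 libraries that give these values are the same that chose the genes, so no P is given.

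Of 11 other family genes, Podn (podocan) read 1733 to 7884 and Ecm2 601 to 1664 normalized counts. Per kb, the group means of Podn (704 to 1580) reached above those of Aspn (329 to 822) and Fmod (241 to 392), and those of Ecm2 (223 to 360) overlapped those of Fmod. Ecm2, 11.7 kb from Aspn on the same strand, correlated with it at r = 0.91 and was at a log2 fold change of -0.68 in DIO-VSG against DIO-HFD (limma, unadjusted P = 0.0156, adjusted P = 0.308). Optc (opticin), 2.3 kb from Prelp, read 84.2, 96.3, 309 and 40.1 normalized counts in DIO-HFD and 27, 36, 33.9 and 29.5 in DIO-VSG. Optc was the 1 of 11 without overlap in that comparison (-1.65, limma, unadjusted P = 0.00701, adjusted P = 0.274), where 4.22% of all genes were lower without overlap. Of the 11, 2 were lower at an unadjusted P below 0.05 in limma, against 8.12% of all genes. Podnl1 had an estimate above 0 (1.14, limma, adjusted P = 0.41), as did Kera, Epyc, Chad and Tsku (0.13 to 0.75), and Omd (-0.62), Podn (-0.51), Chadl (-0.42) and Nyx (-0.28) below 0. Kera and Epyc were at most 37.5 and 61.8 normalized counts. In all, 0 of 11 passed the adjusted threshold, and their median was -0.28.

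The collagens that these proteoglycans bind were also lower in DIO-VSG than in DIO-HFD by their fitted values, without passing the adjusted threshold. Of 12 fibril collagens and partners, 12 had estimates below 0, against 47.5% of all genes, with a median of -0.94, and 3 had an unadjusted P below 0.05 in limma, as 8.12% of all genes did in this direction. Col6a1, of the beaded filament collagen, was at 11500 ± 4830 normalized counts in DIO-VSG and 27800 ± 12700 in DIO-HFD (-1.27; limma, adjusted P = 0.308). Col12a1, of a fibril-associated collagen, was at 1070 ± 279 and 1790 ± 95.8 (-0.79; limma, adjusted P = 0.312). Both were without overlap, as were 4.22% of genes in this direction. Col1a1 (-0.76), Col1a2 (-0.90), Col3a1 (-0.96) and Col5a1 (-1.17) overlapped between the groups. In DIO-LFD against DIO-HFD 10 of the 12 were below 0 (48.4% of all genes), with a median of -0.54.

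Among 28 genes of glycosaminoglycan chain synthesis, 0 passed in DIO-VSG against DIO-HFD, 11 were lower and 1 higher at an unadjusted P below 0.05 in limma (8.12% and 5.05% of all genes), and the median was -0.12. Dse, the epimerase that turns chondroitin into dermatan sulfate, was at -0.85 (limma, adjusted P = 0.308), and Chst14, the dermatan sulfotransferase, at -0.43 (limma, adjusted P = 0.32). Xylt1 (0.48) and Xylt2 (-0.06), which attach the first sugar of the chain, and Chsy1 (0.10), which extends it, had adjusted P of 0.53 or more in limma.

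Of 13 tested processing proteases, 13 had estimates below 0 in DIO-VSG against DIO-HFD (median -0.79), 5 of them at an unadjusted P below 0.05 in limma, beside 47.5% and 8.12% of all genes. Bmp1, which cleaves the biglycan propeptide, was at -0.73 (limma, adjusted P = 0.324), Mmp2 at -0.97 without overlap (limma, adjusted P = 0.385) and Mmp14 at -0.53 (limma, adjusted P = 0.42). Among 13 receptors and ligands 7 were lower at an unadjusted P below 0.05 in limma (8.12% of all genes). Of the receptors for soluble biglycan, Tlr4 was at -0.45 (limma, adjusted P = 0.367) and P2rx7, which acts with them, at -0.53 (limma, adjusted P = 0.283), both without overlap (4.22% of all genes), while Tlr2 was at -0.05 and the hyaluronan receptor Cd44 at -0.37. In the TGF-beta pathway 12 of 18 were below 0 (47.5% of all genes), with a median of -0.07, 5 were lower at an unadjusted P below 0.05 in limma (8.12%) and 4 were without overlap (4.22%). These 4, named after their values were seen, were the ligands Tgfb2 (-0.81) and Tgfb3 (-0.54) and the latent TGF-beta binding proteins Ltbp1 (-0.78) and Ltbp4 (-1.02; limma, adjusted P = 0.243). Tgfb1 (0.06), Tgfbi (-0.32) and Ctgf (-0.04) all had adjusted P of 0.65 or more in limma. In each of these 6 lists 0 genes passed the adjusted threshold, in this and in the 5 other comparisons.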

How the data were processed

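Total RNA of 16 mammary adipose samples was sequenced on the Illumina platform from stranded libraries as paired reads of 76 bases. Per the methods, the authors aligned reads with STAR to GRCm38 and estimated abundance with salmon; the submitters' processing notes instead name TopHat2 2.0.7, HTSeq 0.5.3p9 and DESeq2 on mm10. The deposited log2 values are the output of the authors' DESeq2 variance-stabilizing transformation (5.36 to 21.85), with genes under 10 reads in total removed. The transformation was inverted, and 100.0% of values then came out as whole reads (tolerance 0.05). The design had assumed normalized counts.

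Groups came from sample titles, and 0 columns of values had no sample. Replicates of a group differed by a chi-square of at least 69.6 per gene, so none was a library given again. The labels name separate mice but no batch, and P values measure the spread between these mice. limma 3.58.1 (R 4.3.3) was fitted with a trend to log2(normalized count + 1), which understates the change of low genes, over 16 libraries and their 4 groups, without covariates. A gene needed 10 normalized counts in 4 libraries to be tested, which 21218 genes had, and the 6 two-sided comparisons were each adjusted by Benjamini-Hochberg. The fit was tested on simulated data. Alternatives were a pseudocount of 8, no filter, quantile normalization, scaling to total reads, the deposited values, limma voom, a fit of the 8 libraries compared, library quality weights, a replicate block, marker scores as covariates, and leaving out libraries.

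The members, the lists and the named genes were chosen with earlier results of these data known. Named were the 7 members, a set of genes given per list, any list gene past the threshold (there were none) and the 3 genes most correlated with each member. The values of 1 other gene that this choice named are not reported here. Promoter sequences of 5 of the 7 members were found in the RefSeq table, and Dcn and Lum were not among them.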

Additional observations from a re-analysis of the deposited data

Results flagged for a closer look

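Groups of 4 libraries were searched for a library far from the other 3 in the levels of the members and other family genes, the shares and ratios of the members, and the marker scores. With 168 groups searched, about 8 such libraries would be found by chance, and 7 were found. None of them was a level of a member. The members together took 0.377% of normalized counts in CON-LFD replicate 4, far above the other CON-LFD libraries (0.212 to 0.22%), and the ratio of Prelp to Dcn per kb was 1.61 in CON-LFD replicate 2, against 0.636 to 0.736 in the others. Ecm2 stood at 924 normalized counts in DIO-HFD replicate 1, below 1365 to 1476 in the other libraries of the group, and Epyc at 0 in DIO-LFD replicate 1, against 8.58 to 12.3. Scores stood apart for skeletal muscle in DIO-LFD replicate 4 (6.03), for keratinocytes in DIO-HFD replicate 4 (6.29) and for cartilage and tendon in CON-LFD replicate 1 (-0.47).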

How the results depend on the processing

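Each of 42 log2 fold changes (7 members in 6 comparisons) was recomputed under 28 alternatives, and 26 kept their direction throughout. For DIO-VSG against DIO-HFD the ranges were -1.05 to -0.83 for Bgn, -1.55 to -0.95 for Aspn and -1.47 to -0.71 for Prelp, and 11 of all values had an adjusted P below 0.05 in limma, each of them with library quality weights. Values that changed sign are given here, those from leaving out 1 library as ranges, and the cause was not tested. With library quality weights, DIO-HFD against CON-LFD gave 0.22 for Ogn, DIO-VSG against DIO-HFD -0.36 for Fmod, DIO-VSG against DIO-LFD -0.30 for Lum, and DIO-LFD against CON-LFD 0.22 for Dcn, 0.10 for Fmod and 0.03 for Ogn. Fmod in DIO-VSG against DIO-HFD, at 0.00, was -0.02 with quantile normalization, -0.03 scaled to total reads and with limma voom, 0.00 on the deposited values, -0.35 with the B cell score and -0.56 without the 4 libraries of low B cell score. In DIO-LFD against CON-LFD, Dcn was 0.02 scaled to total reads and 0.10 without those 4 libraries, and Prelp 0.09 with the B cell score and 0.07 without those libraries. With the stromal progenitor score, Dcn was -0.05 in DIO-HFD against CON-LFD, 0.05 in DIO-LFD against DIO-HFD and 0.00 in DIO-LFD against CON-LFD, Ogn was 0.06 in DIO-LFD against DIO-HFD, and Lum 0.25 in DIO-VSG against DIO-HFD. Leaving out 1 library at a time gave, in DIO-HFD against CON-LFD, -0.10 to 0.44 for Dcn, -0.71 to 0.07 for Lum, -0.56 to 0.08 for Ogn and -0.04 to 0.49 for Aspn. It gave -0.39 to 0.05 for Dcn, -1.48 to 0.05 for Lum and -0.77 to 0.23 for Ogn in DIO-LFD against DIO-HFD, and -0.22 to 0.26 for Fmod in DIO-VSG against DIO-HFD. In DIO-VSG against DIO-LFD it gave -0.34 to 0.02 for Bgn, -0.62 to 0.91 for Lum and -0.37 to 0.01 for Aspn, and in DIO-LFD against CON-LFD -0.26 to 0.28 for Dcn and -0.29 to 0.07 for Fmod.

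Counts of genes past the threshold in limma depended on the setting. Library quality weights gave 4196 genes in DIO-HFD against CON-LFD, 53 in DIO-LFD against CON-LFD, 1811 in DIO-LFD against DIO-HFD, 4226 in DIO-VSG against CON-LFD, 3739 in DIO-VSG against DIO-HFD and 184 in DIO-VSG against DIO-LFD. For DIO-HFD against CON-LFD (8 genes) the count was 17 with the B cell score, 0 in the fit of 8 libraries and with limma voom, 3 with quantile normalization, 19 scaled to total reads, 5 with the stromal score, 1 without the 4 libraries of low B cell score, and 0 to 128 on leaving out 1 library, highest without CON-LFD replicate 3. For DIO-LFD against CON-LFD (1 gene) it was 6 with the B cell score, 2 on the deposited values, with a pseudocount of 8, scaled to total reads and with the stromal score, 0 in the fit of 8 libraries and with limma voom, 3 without the 4 libraries, and 0 to 6 on leaving out 1 library. For DIO-VSG against CON-LFD it was 1 with the B cell score, on the deposited values and without the 4 libraries, 2 in the fit of 8 libraries, and 0 to 873 on leaving out 1 library, highest without CON-LFD replicate 3. Scaling to total reads gave 1 in DIO-VSG against DIO-HFD, and leaving out 1 library 0 to 1 there and in DIO-LFD against DIO-HFD. DIO-VSG against DIO-LFD gave 1533 in the fit of 8 libraries and 4 without the 4 libraries. With the replicate number as a block the counts were 1 in DIO-HFD against CON-LFD and 0 in the other 5 comparisons, and no member passed. Deviations of the 24 same-numbered pairs correlated at -0.61 to 0.53, with 9 above 0.1, and 7 of 16 libraries were closest to their own number. Whether the replicate numbers pair the samples was not tested against differently numbered pairs. Each member had at least 276 reads in each library, and neither depth nor the number of libraries a group was varied beyond leaving libraries out.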
